A study of Rattus norvegicus and Bos taurus with 6 samples.

Results

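Macrophage nuclei of the brown fat depots of the rat were described in single-nucleus RNA sequencing libraries of thoracic aortic perivascular adipose tissue (taPVAT), the brown fat around the chest part of the aorta, and of subscapular brown adipose tissue (BAT). Nuclei were selected on unique molecular identifiers (UMIs, each marking 1 captured RNA molecule) of 18 genes. A was the UMI sum of Mrc1, Cd163, F13a1, Csf1r, Aoah, Syk and Lcp2, genes of myeloid cells. B was the sum of Ptprb, Pecam1, Flt1, Pdgfra, Dcn, Fbn1, Notch3, Myh11, Skap1, Themis and Bcl11b, genes of endothelial, stromal, mural and T cells. A nucleus was taken as a macrophage nucleus when A was at least 3 and more than 2 times B. The rule chose 180 of 5407 nuclei, 132 of 2708 in taPVAT and 48 of 2699 in BAT, out of 19424 nuclei in all 6 libraries of the series.

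The series tested nuclei isolation from rat and cow fat. Both libraries came from male Dahl salt-sensitive rats (strain SS/HsdMcwiCrl, Charles River), labelled normal for disease, housed at 22 °C and placed in batch 2, with snap-frozen tissue and the Parse Evercode kit, which barcodes fixed nuclei in wells. No treatment or genotype differed between them, the age was not given in the labels, and how many animals went into a library was not stated. With 1 library for each depot, the depot, the animals and the library cannot be told apart. No difference was therefore tested, and all 95% intervals (exact Poisson for UMI sums, exact Clopper-Pearson for shares) cover counting error only. Levels are UMIs per 1000000 UMIs of the same nuclei (CPM).

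Macrophages are phagocytes that take up dying cells, debris and lipid. Their growth and survival depend on the colony-stimulating factor receptor encoded by Csf1r. In fat, resident macrophages line blood vessels and nerves and carry the mannose receptor Mrc1 and the haemoglobin scavenger receptor Cd163. Other myeloid cells enter tissue from blood as monocytes, using leukocyte integrins to cross the vessel wall.

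Macrophage nuclei made up 4.87% (4.09 to 5.75) of the nuclei of taPVAT and 1.78% (1.31 to 2.35) of those of BAT. The rule needs 3 UMIs and so depends on depth, and BAT was the deeper library, with a total of 6317970 UMIs against 5100216 in taPVAT. After each nucleus had been thinned to 500 UMIs, which left out 386 nuclei of taPVAT and 115 of BAT, the shares were 2.80% (2.17 to 3.55) and 0.619% (0.354 to 1.00). The unthinned shares of the same nuclei were 5.08% and 1.74%. The higher share in taPVAT was thus present at equal depth, with intervals that did not overlap. The first barcoding wells, which are parts of 1 nucleus suspension, gave 3.98%, 5.14% and 5.38% in taPVAT and 1.34%, 2.03% and 2.02% in BAT. The lowest well of taPVAT (2.74 to 5.57) lay above the highest of BAT (1.23 to 3.16), with intervals that overlapped. Because the libraries filled different first wells, no whole cell barcode could be shared between them. Of the combinations of barcoding rounds 2 and 3, 394 occurred in both. In the white depots, the same rule chose 14 of 3028 nuclei of mesenteric fat (0.462%) and 7 of 2805 of retroperitoneal fat (0.25%). In a 10x Genomics library of mesenteric fat it chose 58 of 5887 (0.985%). The nuclei not chosen had medians of 344, 213 and 160 UMIs in these libraries. Their shares are thus not at equal depth with those of the brown depots.

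Macrophage nuclei were shallower than the others in taPVAT. Their median depth was 973 UMIs (order-statistic interval 851 to 1104) in taPVAT, where the other nuclei had 1276 (1216 to 1322). In BAT the medians were 1576 (1210 to 2938) and 1708 (1653 to 1789), with overlapping intervals. Single nuclei ranged from 342 to 10051 UMIs in taPVAT and from 447 to 21443 in BAT. Together they held 204274 UMIs in taPVAT and 140460 in BAT, the sums on which every level below rests.

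Many nuclei lay near the limit. A was exactly 3 in 23 nuclei of taPVAT and 7 of BAT, whose median depths were 629 and 656 UMIs. Just outside, with A of 2 and the condition on B met, were 31 nuclei of taPVAT and 11 of BAT with median depths of 733 and 727 UMIs. A further 65 and 22 nuclei had A of at least 3 and failed the condition on B. The median of A was 6 in taPVAT and 7.5 in BAT, with maxima of 37 and 47. The chosen nuclei held 52.5% of all UMIs of the 7 A genes in taPVAT and 55.0% in BAT.

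**Figure D1:**
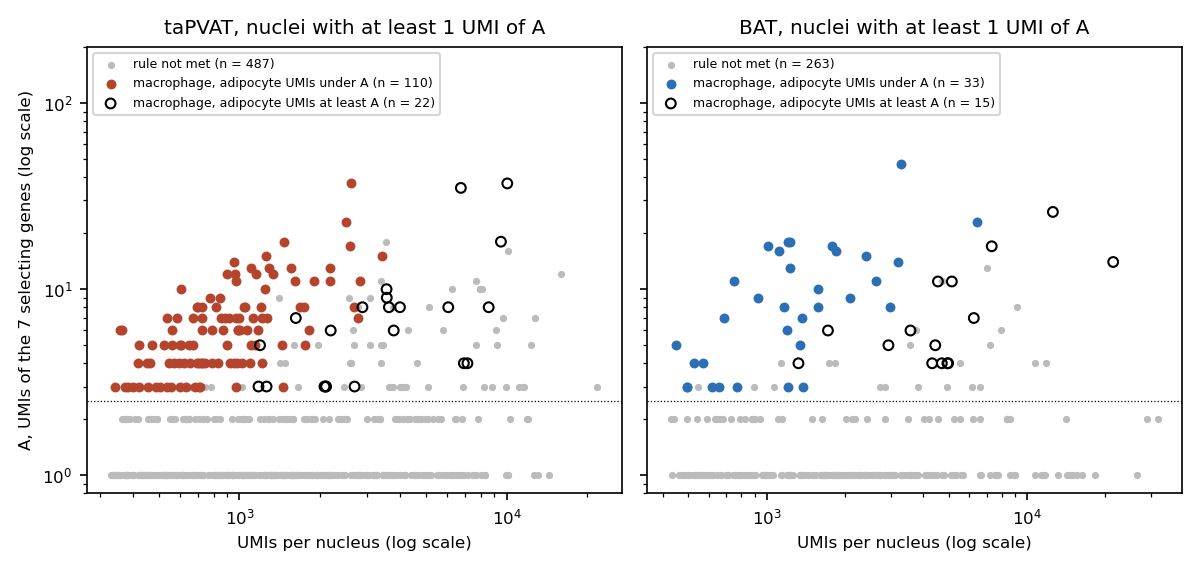
Each point is 1 nucleus with at least 1 UMI of the 7 selecting genes, by its total UMIs (x axis, log scale) and its UMIs of those genes (y axis, log scale), with the limit as a dotted line, in taPVAT (left) and BAT (right). Open circles mark the 22 and 15 macrophage nuclei whose adipocyte UMIs were at least A, most of which lie to the right.

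The selecting genes themselves are given as a description, since they chose the nuclei. Mrc1 had 1082 CPM in the macrophage nuclei and 38.2 in the other nuclei of taPVAT, and 705 against 11 in BAT. Csf1r had 754 against 24.7 CPM and 619 against 10.9. Cd163 was seen in 49 of 132 nuclei of taPVAT and 24 of 48 of BAT, and F13a1, which encodes the A subunit of coagulation factor XIII, in 62 and 21. At least 1 UMI of Mrc1, Cd163 or F13a1 was present in 90 nuclei of taPVAT (68.2%) and 35 of BAT (72.9%), and the others had been admitted through Csf1r, Aoah, Syk and Lcp2 alone.

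The label was then checked against macrophage and leukocyte markers that the rule had not used. A gene was called higher in macrophage nuclei when its CPM, with 1 UMI added to each sum, was at least 2 times that of the other nuclei, and lower when it was at most 0.5 times, among genes with at least 50 UMIs in the library. All 9 such markers tested in taPVAT were higher, with a median ratio of 8.24, and all 7 tested in BAT, with a median ratio of 13. Of all genes tested outside the rule, 15.4% were higher (1575 of 10234) and 8.05% lower in taPVAT, and 17.8% (1869 of 10481) and 5.74% in BAT, with median ratios of 1.12 and 1.19. These markers did not set the nuclei apart from lymphocytes, since the list summed to 3417 CPM in macrophage and 4728 CPM in lymphocyte nuclei of taPVAT and to 2114 and 1949 CPM in BAT, where the lymphocyte nuclei were 12 and 8 with 15651 and 14882 UMIs in all. Because the rule had set myeloid nuclei against the rest, these counts and those that follow for the same contrast describe the nuclei and are no support for the label.

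Ptprc, which encodes the pan-leukocyte phosphatase CD45, had 224 UMIs or 1097 CPM (958 to 1250) in the macrophage nuclei of taPVAT against 112 CPM in the other nuclei. In BAT it had 80 UMIs or 570 CPM (452 to 709) against 38.0. Thinned to 500 UMIs, 44.9% of macrophage nuclei but 1.43% of adipocyte nuclei of taPVAT held a UMI of Ptprc, and 31.1% and 1.03% in BAT. Dock2, a leukocyte activator of the small G protein Rac, had 705 CPM against 86.0 in taPVAT and 506 against 39.3 in BAT. Spi1 encodes PU.1, the transcription factor that directs myeloid development, and it had 19 UMIs in taPVAT (93.0 CPM against 9.40) and 16 in BAT (114 against 3.56). Several classical markers were sparse in nuclear RNA. The complement genes C1qa, C1qb and C1qc had 14, 14 and 8 UMIs in taPVAT and 3, 4 and 1 in BAT, Cd68 had 6 and 2, and Tyrobp 4 and 0, where a count of 0 allows up to 26.26 CPM in BAT.

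The 20 genes that led in both libraries were ranked by the smaller of their ratios among 2690 genes seen in at least 10% of macrophage nuclei of each library. Their summed level was 8175 CPM (7788 to 8577) in the macrophage nuclei of taPVAT, against 446 in endothelial, 399 in stromal, 372 in mural and 229 in adipocyte nuclei of that library. In BAT it was 5575 CPM (5191 to 5979), against 203, 304, 168 and 116. Nuclei that met no rule had 1413 CPM (957 nuclei) in taPVAT and 867 (610 nuclei) in BAT. The 12 lymphocyte nuclei of taPVAT had 1086 CPM (633 to 1739) and the 8 of BAT 605 (276 to 1148). The few nuclei chosen in the white depots also held these genes, with 3049 CPM (2168 to 4168) in mesenteric and 3120 (1612 to 5450) in retroperitoneal fat, where the other nuclei had 857 and 986. In the 10x library of mesenteric fat, 18 of the 20 genes were in the files and summed to 8180 CPM (6972 to 9536) against 553.

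**Figure D2:**
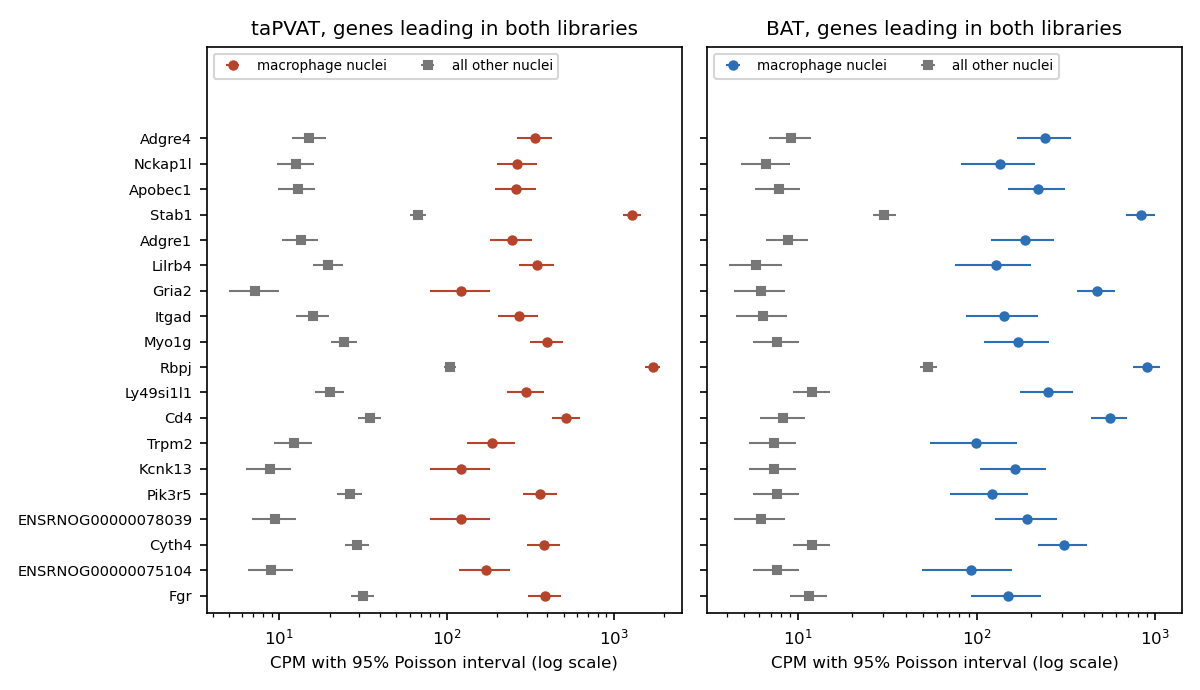
Level of 19 of the 20 leading genes in CPM (x axis, log scale) in macrophage nuclei (circles) and all other nuclei (squares) of taPVAT (left) and BAT (right), with 95% Poisson intervals. Stab1 and Rbpj reach 1283 and 1699 CPM in taPVAT, and every circle lies to the right of its square because the genes were ranked on that ratio.

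Of the leading genes, Adgre4, Adgre1, Stab1, Cd4, Lilrb4 and Itgad encode proteins of the cell surface. Adgre4, an adhesion G protein-coupled receptor of macrophages, had 338 CPM (263 to 428) against 15.1 in the other nuclei of taPVAT and 242 (168 to 338) against 9.07 in BAT. Adgre1 encodes F4/80, the best known mouse macrophage antigen of that family, and had 245 CPM (182 to 323) against 13.5 and 185 (121 to 271) against 8.74. Stab1, the scavenger receptor stabilin-1, had 1283 CPM (1132 to 1448) against 67.2 in taPVAT and 833 (689 to 998) against 30.4 in BAT. It was seen in 76 of 132 and 30 of 48 nuclei. Thinned to 500 UMIs, Stab1 was found in 42.4% of macrophage and 1.05% of adipocyte nuclei of taPVAT, and in 40.0% and 0.442% in BAT. Cd4 is the co-receptor of helper T cells and, in the rat, is also carried by monocytes and macrophages. It had 519 CPM (425 to 628) against 34.7 in taPVAT and 555 (439 to 693) against 8.26 in BAT. Lilrb4, an inhibitory receptor, had 348 CPM against 19.6 and 128 against 5.83, but it and the leading gene Ly49si1l1 belong to families of near copies among which the counting may have divided reads.

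Fgr, Nckap1l, Myo1g, Pik3r5 and Cyth4 encode signalling or cytoskeletal proteins of blood cells. Fgr, a Src-family kinase of phagocytes, had a ratio of 12.3 in taPVAT and 13.4 in BAT. Nckap1l, the blood-cell subunit of the WAVE actin-regulating complex, had ratios of 20.9 in each library. Myo1g, a leukocyte myosin, had 397 CPM against 24.5 in taPVAT and a ratio of 22.9 in BAT. Rbpj, the DNA-binding protein through which Notch receptors act, had 1699 CPM (1525 to 1887) against 105 in taPVAT and 897 (747 to 1068) against 53.6 in BAT. Apobec1, which edits apolipoprotein B mRNA, had 260 CPM (194 to 339) against 12.9 and 221 (150 to 313) against 7.77. The channel genes Trpm2 and Kcnk13 had ratios of 15.3 and 14.2 in taPVAT and 14.3 and 23 in BAT.

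Promoters of 11 of the 20 leading genes were matched in RefSeq (assembly GRCr8) and searched over the 250 bases before the start for GAGGAA, the Ets core bound by PU.1, and its reverse complement TTCCTC. At least 1 match was present in 6 of the 11 (54.5%) and in 7812 of all 33469 promoters (23.3%). The promoters of 3 leading genes that held a match are shown 5′ to 3′ on the strand of the gene, with the match in capitals. Stab1 lies on the minus strand (chr16:6367360-6367609), Adgre4 on the plus strand (chr9:10085105-10085354) and Apobec1 on the minus strand (chr4:157487602-157487851).
Stab1: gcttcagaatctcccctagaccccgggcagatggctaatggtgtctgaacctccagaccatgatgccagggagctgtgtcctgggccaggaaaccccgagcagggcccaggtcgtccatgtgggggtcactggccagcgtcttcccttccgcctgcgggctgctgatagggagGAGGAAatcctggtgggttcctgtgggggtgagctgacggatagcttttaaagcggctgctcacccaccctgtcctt
Adgre4: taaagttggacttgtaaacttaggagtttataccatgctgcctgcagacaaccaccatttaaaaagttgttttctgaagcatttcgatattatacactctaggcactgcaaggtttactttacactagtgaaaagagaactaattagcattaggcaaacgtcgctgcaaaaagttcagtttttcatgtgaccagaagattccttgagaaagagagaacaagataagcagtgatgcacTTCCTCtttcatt
Apobec1: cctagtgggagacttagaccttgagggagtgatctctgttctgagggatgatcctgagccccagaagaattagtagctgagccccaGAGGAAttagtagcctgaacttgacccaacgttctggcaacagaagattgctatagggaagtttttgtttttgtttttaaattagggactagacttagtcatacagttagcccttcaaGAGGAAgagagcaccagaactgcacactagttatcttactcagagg
The match began 77 bases before the start in Stab1, 13 bases before it in Adgre4, and 164 and 46 bases before it in Apobec1. These are matches of letters and not sites of binding.

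The groups of macrophage function differed in how far their members stood above the other nuclei. A stricter rule added that the Poisson intervals should not overlap. Under it 8.59% of tested genes were higher and 4.05% lower in taPVAT, 5.75% and 2.17% in BAT, and 3.64% (357 of 9814) were higher and 0.886% lower in both libraries. By the 2-fold rule alone, 15.4% were higher in taPVAT and 17.8% in BAT. The list counts against the other nuclei below use the 2-fold rule unless intervals apart are named. Of the list of myeloid signalling genes, 16 of 16 tested were at least 2-fold higher in taPVAT (median ratio 8.19) and 13 of 13 in BAT (median ratio 11.6). All of these genes also had intervals apart. Many of them act in all leukocytes, and the list summed to 7549 CPM in macrophage and 8881 CPM in lymphocyte nuclei of taPVAT and to 5005 and 5107 CPM in BAT. Fyb1, an adaptor that couples receptors to integrins, had 705 CPM against 71.5 in taPVAT and 506 against 22.5 in BAT. Prkcb, protein kinase C beta, had 749 against 72.5 and 420 against 33.2. Lyn, a Src-family kinase also used outside blood cells, had 1062 against 331 and 840 against 331.

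Genes of resident and perivascular macrophages summed to 3686 CPM against 705 in taPVAT and 2784 against 415 in BAT, and 5 of 7 tested were at least 2-fold higher in each. The lymphocyte nuclei had 319 CPM of this list in taPVAT and 134 in BAT. Selenop, which encodes the secreted selenium carrier, had 470 CPM against 66.4 and 221 against 38.5. Dab2, an adaptor for receptor uptake, had 421 against 103 in taPVAT and 748 against 43.4 in BAT. The growth factor gene Igf1 did not differ by 2-fold, with 186 CPM against 216 and 178 against 141. Timd4 and Folr2, further markers of resident macrophages, had 21 and 17 UMIs in taPVAT but 3 and 2 in BAT, and Cbr2 had none in either.

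Of the genes for uptake of dying cells and scavenging, 7 of 9 tested were at least 2-fold higher in each library, with median ratios of 3.64 and 3.47. Mertk, a receptor for dying cells, had 152 CPM against 42.9 and 121 against 41.6. Colec12, a scavenger receptor, had 563 against 73.5 and 427 against 60.4. Lrp1, a broad uptake receptor also made by other fat cells, had 1263 against 1144 in taPVAT and 990 against 1136 in BAT, neither past 2-fold.

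Lipid-associated macrophage genes summed to 2002 CPM against 3030 in taPVAT and 2535 against 3081 in BAT. Trem2, the receptor that defines that state in obese fat, had 1 UMI in taPVAT and 0 in BAT, Spp1 had 0 and 1, and Gpnmb 4 and 2. Over all tested genes, 15.4% were at least 2-fold higher in taPVAT and 17.8% in BAT. Of the lipid-associated list, 2 of 11 tested were at least 2-fold higher and 1 lower in taPVAT, with a median ratio of 1.14. In BAT 4 of 11 were higher, 2 of them with intervals apart, with a median ratio of 1.02. The genes of the list past 2-fold in both libraries were Ctsb, a lysosomal protease (235 CPM against 54.1 and 199 against 46.0), and Apoe, the lipoprotein ligand (186 against 42.5 and 85.4 against 22.8). Lpl, lipoprotein lipase, was the lower one in taPVAT, with 847 CPM against 1942, and had 1559 against 2094 in BAT.

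Among genes for sterol and fatty acid handling, 6 of 14 were at least 2-fold higher and 2 lower in taPVAT, and 6 of 13 higher in BAT, of which 5 and 2 had intervals apart. Abca1, the cholesterol exporter, had 465 CPM against 111 and 228 against 83.0. Pltp, which transfers phospholipid between lipoproteins, had 294 against 21.0 in taPVAT and 135 against 14.6 in BAT. Pparg and Dgat2, a regulator and an enzyme of fat storage, were the lower pair in taPVAT with ratios of 0.449 and 0.440, and had 0.827 and 0.735 in BAT.

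All 5 tested genes of MHC class II presentation were higher in taPVAT and both tested genes in BAT, 1 of these with intervals apart, with sums of 494 CPM against 107 and 406 against 49.2. The lymphocyte nuclei had 1597 CPM of this list in taPVAT and none in BAT. Cd74, the invariant chain, had 20 UMIs from 5 nuclei in taPVAT and 10 from 6 in BAT, so that few nuclei carried it. Of complement and Fc receptor genes, 5 of 5 were higher in taPVAT and 3 of 4 in BAT, 2 of these with intervals apart. Itgb2, the beta chain shared by complement receptors and LFA-1, had 294 CPM against 27.8 and 92.6 against 7.12. For heme and iron recycling the counts were 5 of 8 and 3 of 7, with 4 and 2 having intervals apart. Cp, ceruloplasmin, had 206 CPM against 53.7 in taPVAT and 164 against 18.6 in BAT.

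For innate sensing, 5 of 8 tested genes were at least 2-fold higher in taPVAT and 3 of 5 in BAT, 3 and 1 with intervals apart. Nlrp3, the inflammasome sensor, had 29 UMIs in taPVAT (142 CPM against 11.2) and 10 in BAT, and Cd14 had none in either library. Of the cytokine and receptor list, 8 of 11 tested were higher in taPVAT and 4 of 9 in BAT, 7 and 2 of them with intervals apart. Il1b had 1 UMI in taPVAT and 3 in BAT, Tnf 1 and 0, Il6 none and Il10 1 and 0. Il18, a cytokine released by inflammasomes, had 8 and 13 UMIs, and Tgfb1 15 and 10. Il6r, a chain of the interleukin 6 receptor, had 362 CPM against 66.8 in taPVAT and 157 against 40.5 in BAT. Of 23 chemokine and chemokine receptor genes in the files, 10 were at 0 in taPVAT and 15 in BAT, and of the 2 tested Cxcl12 was not past 2-fold in either library, while Ackr3 was lower in taPVAT with 3 UMIs and intervals that overlapped. Of the myeloid transcription factors, 11 of 16 were higher and 1 (Id3) lower in taPVAT and 5 of 13 higher in BAT, of which 10 and 4 of the higher ones and not Id3 had intervals apart. Runx1 had 602 CPM against 129 and 456 against 38.5, and Maf 260 against 81.5 and 178 against 47.4.

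Of the growth factor and receptor genes, 2 of 10 tested were higher in each library, Pdgfc and Tgfb1, and Vegfa was lower in taPVAT. The count of higher genes lay near the share over all tested genes, 15.4% in taPVAT and 17.8% in BAT. Pdgfc, a platelet-derived growth factor, had 162 CPM against 31.7 in taPVAT and 85.4 against 22.8 in BAT. Vegfa, the main factor for vessel growth, had 739 against 1531 and 975 against 1382.

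Genes through which macrophages of sympathetic nerves take up and break down noradrenaline were at the floor. Slc6a2, the noradrenaline transporter, had 1 UMI in taPVAT and 0 in BAT, and Maoa 1 in each. Nr3c1 and Nr3c2, the glucocorticoid and mineralocorticoid receptors, had 636 and 250 CPM in taPVAT against 654 and 379 in its other nuclei. In BAT they had 975 and 406 against 693 and 498, and neither receptor passed 2-fold in either library. Mki67, a proliferation marker, had 12 UMIs in taPVAT from 2 nuclei, 75% of them from 1, and 6 UMIs in BAT from 3 nuclei.

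Markers of other cell types were counted in the same nuclei. The selecting genes were left out of these lists, but through B the nuclei had been chosen for little endothelial, stromal, mural and T cell RNA. All 9 tested endothelial genes were at least 2-fold lower in taPVAT and 7 of 9 in BAT. Stromal genes summed to 636 CPM in taPVAT and 627 in BAT, mural genes to 519 and 513, and muscle genes to 235 and 157, while 6 and 5 of 7 mesothelial genes were at 0. Of the 9 mast cell genes in the files, 8 were at 0 in each library. T and NK cell genes summed to 78.3 CPM against 1470 in the lymphocyte nuclei of taPVAT and to 85.4 against 1075 in BAT. All other nuclei together had 50.04 and 26.2 CPM, and Prkcq, the only gene of that list tested, was higher in both libraries with intervals apart, with 11 and 7 UMIs. The B cell list summed to 1753 CPM in taPVAT and 2777 in BAT, of which Ebf1, also an adipocyte and stromal factor, gave 1503 and 2627. Pax5 and Bank1 of 4 tested were higher and Ebf1 lower in taPVAT, Bank1 and Ebf1 with intervals apart, and Ighm was higher in BAT with intervals apart. Of the dendritic cell genes, Cadm1 and Irf8 of 4 tested were at least 2-fold higher in taPVAT, Irf8 with intervals that overlapped, and Cadm1 in BAT, and Clec9a, Xcr1, Ccr7 and Siglech were at 0 in both libraries. Cadm1, an adhesion gene also used outside dendritic cells, had 220 CPM against 38.8 and 150 against 35.3. Of the Schwann cell genes, 3 of 7 tested were lower in taPVAT, while 4 were at least 2-fold higher and 1 lower in BAT (median ratio 2.21), 2 of the higher ones with intervals apart. The list summed to 788 CPM in taPVAT and 1317 in BAT, of which Scn7a, the most abundant in BAT, gave 605, and 4 of its 10 genes were at 0 in taPVAT and 2 in BAT. With intervals apart, 1 of the lower genes remained in each library.

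Adipocyte genes were seen in part of the macrophage nuclei. The 12 adipocyte genes summed to 5502 CPM (5185 to 5834) in the macrophage nuclei of taPVAT and 7547 (7099 to 8015) in those of BAT, against 13400 and 13250 in adipocyte nuclei. All other nuclei together had 9971 and 10120 CPM. Of the 12 genes, 4 were at least 2-fold lower than in these nuclei in taPVAT and 0 in BAT, beside 8.05% and 5.74% of all tested genes. Endothelial, stromal and mural nuclei had 7132, 5848 and 7204 CPM of the list in taPVAT and 6420, 3773 and 6458 in BAT. Plin1, the lipid droplet coat protein and the most abundant of the 12 genes, had 1493 and 1773 CPM in the macrophage nuclei. The UMIs of Plin1, Adipoq, Cidea, Lipe, Pnpla2 and Acaca were at least A in 22 nuclei of taPVAT with a median depth of 3556 UMIs, and in 15 of BAT with a median of 4711. These nuclei held 45.4% of all macrophage UMIs in taPVAT and 64.3% in BAT, whereas 66 and 17 nuclei held no UMI of the 6 genes. The part of doublets and of free adipocyte RNA in these values was not tested. The deep nuclei therefore weigh on every level above, most of all in BAT.

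Without them, 110 macrophage nuclei remained in taPVAT and 33 in BAT, where the low adipocyte level is fixed by the choice. In these the 20 leading genes summed to 12120 CPM (11480 to 12780) and 10340, against 3438 and 2924 in the nuclei left out. All 9 and all 7 tested markers outside the rule remained higher than in the other nuclei with intervals apart, at median ratios of 13.2 in taPVAT and 28.3 in BAT. Over all tested genes 11.8% were higher and 7.58% lower in taPVAT and 8.36% and 4.01% in BAT by that rule. Ctsb and Apoe were again higher in both libraries. Of the dendritic cell genes, Zbtb46, Irf8 and Cadm1 were higher with intervals apart in taPVAT and Cadm1 in BAT. Lpl, Pparg, Dgat2 and Vegfa were lower with intervals apart in both libraries. Their ratios were 0.162, 0.17, 0.202 and 0.135 in taPVAT and 0.152, 0.232, 0.234 and 0.13 in BAT. The choice removed nuclei rich in adipocyte UMIs, and how far it lowered these genes by itself was not tested.

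**Figure D3:**
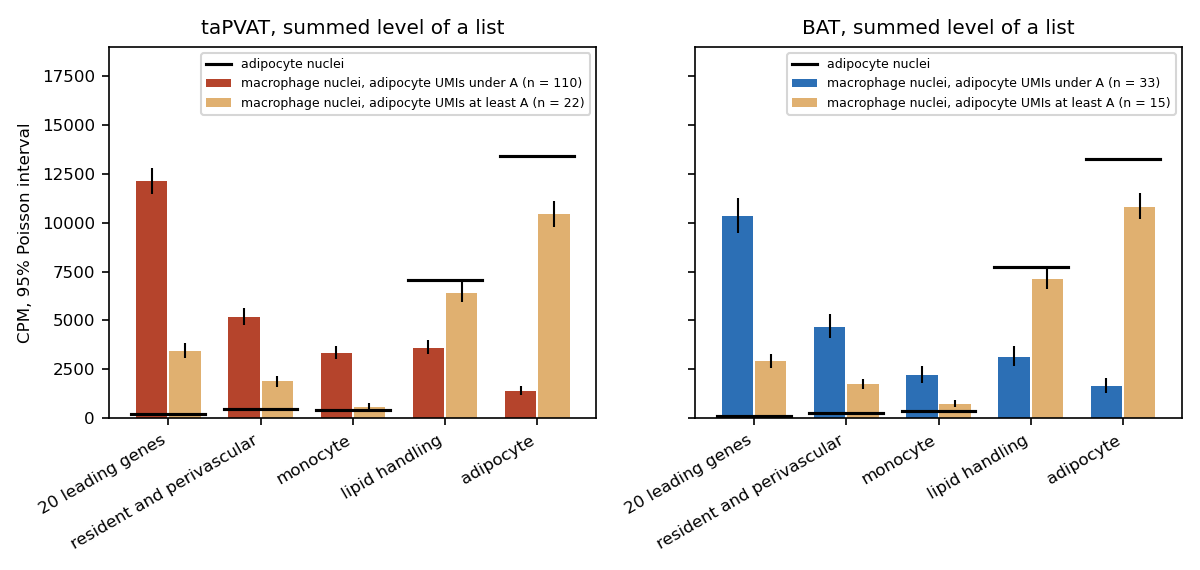
Summed level in CPM (y axis) of 5 gene lists in macrophage nuclei with adipocyte UMIs under A (dark bars) and at least A (light bars) in taPVAT (left) and BAT (right), with 95% Poisson intervals and the level in adipocyte nuclei as a black line. The leading genes stand at 12120 and 10340 CPM in the dark bars, and the adipocyte list is low there because it made the split.

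The macrophage nuclei were divided into 2 kinds by the selecting genes that had admitted them, since the rule could be met without any of Mrc1, Cd163 and F13a1. Nuclei with a UMI of Mrc1, Cd163 or F13a1 numbered 90 in taPVAT and 35 in BAT, with median depths of 1084 and 1721 UMIs. Those with none numbered 42 and 13, with 764 and 1372. The list of resident and perivascular genes, none of them used by the rule, summed to 4656 CPM (4325 to 5006) in the first kind and 407 (245 to 636) in the second in taPVAT, and to 3264 (2943 to 3612) and 593 (332 to 979) in BAT. The monocyte list went the other way, with 634 CPM (516 to 772) and 7011 (6272 to 7814) in taPVAT and 408 (300 to 543) and 5063 (4224 to 6020) in BAT. Itgal, Itga4 and Treml4 gave 114, 90 and 69 of the 327 UMIs of that list in the second kind in taPVAT and 25, 25 and 49 of 128 in BAT. In both libraries the intervals lay far apart and in the same order. Nuclei of the second kind are called macrophage nuclei here by the rule alone.

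Nuclei of the second kind were not short of leukocyte RNA. The macrophage and leukocyte markers outside the rule summed to 5939 CPM (5260 to 6682) in them against 2671 (2422 to 2938) in the first kind in taPVAT, and to 4588 against 1571 in BAT. Ptprc had 2552 CPM (2114 to 3053) against 666 (545 to 806), and 1938 against 269. T and NK cell genes stood at 64.3 against 82.5 CPM in taPVAT and at 198 against 60.8 in BAT. Dendritic cell genes stood at 1115 against 603 and at 949 against 712. The monocyte list also holds genes of other leukocytes, and it summed to 1533 CPM in the lymphocyte nuclei of taPVAT and 1277 in those of BAT.

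Over all genes with at least 20 UMIs in the macrophage nuclei of a library, and with the rule genes left out, 8.6% were at least 2-fold higher with intervals apart in the second kind and 5.94% lower in taPVAT. In BAT the shares were 4.49% and 3.43%. In both libraries at the same time, 52 of 1406 genes were higher (3.7%) and 26 lower (1.85%). This comparison and the genes named from it were chosen after values had been seen. It divided the 20 leading genes too, as 8 were higher in the second kind and 5 in the first in taPVAT, and 4 and 5 of 15 tested in BAT.

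By the smaller ratio of both libraries, the 6 genes most raised in the second kind were Dnah14, Itgal, Myo1g, Samhd1, Itga4 and Treml4. Itgal, the alpha chain of the integrin LFA-1, had 2444 CPM (2016 to 2936) from 31 of 42 nuclei in taPVAT, against 133 in the first kind. In BAT it had 989 CPM (640 to 1460) from 11 of 13 nuclei, against 52.1. Itga4, the alpha 4 integrin chain, had 1930 CPM against 140 in taPVAT and 989 against 78.1 in BAT. Treml4, a receptor of the TREM family, had 1479 against 121 and 1938 against 52.1. Samhd1, which removes deoxynucleotides in resting myeloid cells, had 43 UMIs from 20 nuclei of the second kind and 8 from 7 of the first in taPVAT, and 20 from 7 and none in BAT. Tnfrsf1b, TNF receptor 2, had 1051 CPM against 133 and 475 against 86.8. Of the leading genes, Adgre4, Fgr and Myo1g were on this side in both libraries, Adgre4 with 1115 CPM against 108 and 1068 against 60.8. Ccr2, the chemokine receptor of inflammatory monocytes, was near the floor, with 3 UMIs in the first kind and 0 in the second in taPVAT and none in BAT.

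The 6 genes most raised in the first kind were Negr1, Itgb5, Stab1, Dab2, Pepd and the unnamed ENSRNOG00000078039. Stab1 had 1637 CPM (1443 to 1849) against 85.8 (23.4 to 220) in taPVAT and 990 (816 to 1189) against 119 (24.5 to 347) in BAT. Dab2 had 527 CPM against 64.3 and 894 against 79.1. Negr1, a cell adhesion protein best known in neurons, had 85 UMIs from 38 nuclei of the first kind and 1 UMI in the second in taPVAT, and 100 UMIs from 26 nuclei and none in BAT. Asgr2, a subunit of the asialoglycoprotein receptor, had 37 UMIs and 1 in taPVAT and 30 and 0 in BAT. Slco2b1, an organic anion transporter, had 552 CPM against 193 and 695 against 39.6. Slc9a9, a sodium-proton exchanger of endosomes, had 1599 CPM against 172 and 1198 against 277. Rbpj, Apobec1 and Gria2 of the leading genes were on this side in both libraries, with Rbpj at 2125 CPM against 257 and 1016 against 356. Selenop had 609 CPM and 0 UMIs in taPVAT and 252 and 79.1 CPM in BAT, where the intervals overlapped. Pparg, Acaca and Ebf1 were also among the genes higher in the first kind in both libraries. The first kind held more adipocyte RNA, with 5849 CPM of the adipocyte list against 4331 in taPVAT and 8031 against 5340 in BAT. Its part in the genes named here was not tested.

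Of the myeloid transcription factors with enough UMIs for this comparison, Ikzf1 was higher in the second kind and Maf in the first of 8 in taPVAT, and Ikzf1 in the second of 6 in BAT. Spi1 had 88.8 CPM in the first and 107 in the second kind in taPVAT and 113 and 119 in BAT. Zeb2 had 2030 and 2016 CPM in taPVAT and 1380 and 1899 in BAT. Ikzf1, a lymphoid and myeloid factor, had 203 against 558 CPM and 104 against 514.

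The order was the same among deeper nuclei and among those with few adipocyte UMIs. Among nuclei of at least 1000 UMIs, the monocyte list stood at 628 CPM in the first and 5708 in the second kind in taPVAT, and at 398 and 4276 in BAT. The resident list stood at 3448 and 418, and at 3092 and 611. Among nuclei with adipocyte UMIs under A the resident list stood at 7284 and 413 CPM in taPVAT and 5910 and 896 in BAT, and the monocyte list at 877 and 8990, and 528 and 7328. Of the 52 genes higher in the second kind, 28 were among the 30 called in nuclei of at least 1000 UMIs. Of the 26 genes lower in it, 12 were among the 13 called there. Without nuclei rich in adipocyte UMIs, 20 of the 52 and 14 of the 26 were called, where 296 genes were tested and not 1406.

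UMIs of both lists also occurred within single nuclei. In taPVAT, 56 of the 90 nuclei of the first kind held UMIs of the resident list alone, 31 of both lists and 3 of the monocyte list alone. Of the 42 of the second kind, 33 held UMIs of the monocyte list alone, 5 of both, 3 of the resident list alone and 1 of neither. In BAT, the first kind had 16 nuclei with the resident list alone, 18 with both and 1 with the monocyte list alone, and the second kind had 7 with the monocyte list alone and 6 with both.

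**Figure D4:**
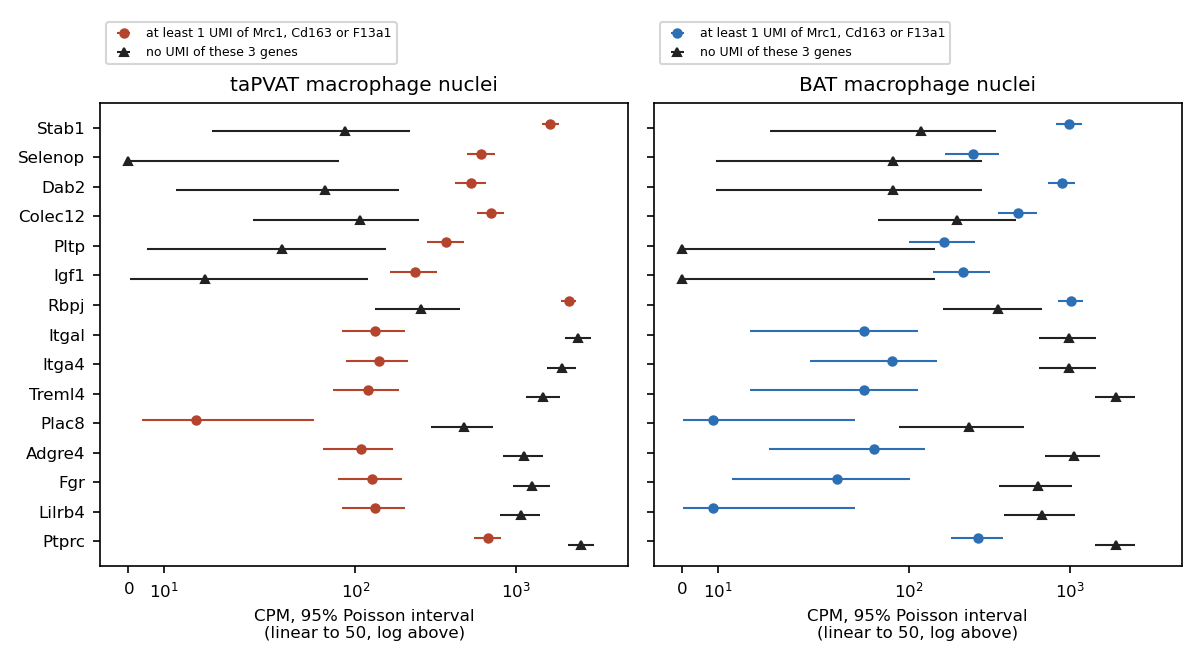
Level in CPM (x axis, linear to 50 and log above) of 15 genes in macrophage nuclei with at least 1 UMI of Mrc1, Cd163 or F13a1 (circles) and with none (triangles) in taPVAT (left) and BAT (right), with 95% Poisson intervals. Itgal lies at 2444 CPM for the triangle and 133 for the circle in taPVAT, and Stab1 in the reverse order at 85.8 and 1637.

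Macrophage nuclei of taPVAT were last set against those of BAT. Among 3888 genes with at least 20 UMIs over both, 2.39% (93) were at least 2-fold higher in taPVAT with intervals apart and 1.88% (73) lower, and the median ratio was 1.01. Without the deepest nucleus of each library, 58 of 3610 were higher and 61 lower. Under the limits of the study, 38 of 3594 were higher and 58 lower. Without the nuclei whose adipocyte UMIs reached A, 1.46% (28 of 1916) were higher and 1.83% (35) lower. Of the 20 leading genes, 15 did not pass this rule, Fgr, Pik3r5, Lilrb4 and Myo1g were higher in taPVAT, and Gria2 was lower. Without those nuclei Pik3r5, Myo1g and Gria2 kept their calls, but Fgr at 1.65 times and Lilrb4 at 1.46 times did not. Stab1 was 1.54 times (1.23 to 1.93) as high in taPVAT, and Cd4 0.934 times (0.691 to 1.27).

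The 10 genes most raised in taPVAT were C6, Metrnl, C3, Rilpl1, Cmtm7, Hs6st3, Spon1, Abcc9, Ciita and Stk40. Rilpl1 was called in 4 of 8 settings, and Cmtm7 and Stk40 in 3. For Spon1, 1 nucleus gave 53.85% of the 26 UMIs of taPVAT, and its 127 CPM lay below the 149 of the other nuclei. C6, a component of the membrane attack complex, had 36 UMIs in taPVAT and 1 in BAT, a ratio of 24.8 (4.17 to 1005). With 1 UMI added its ratio was 12.7, and the other nuclei of the libraries had a ratio of 3.47. C6 was called in 7 of 8 settings. Of the complement and Fc receptor genes, 2 of 4 tested were higher in taPVAT, C3 and Itgb2. C3, the central complement component, had 33 UMIs and 2, a ratio of 11.4 (2.90 to 97.6), or 7.79 with 1 UMI added. C3 was called in 5 of 8. In the other nuclei it was 5.13 times as high in taPVAT, and relative to these the macrophage ratio (1 UMI added) was 1.52. In taPVAT C3 came mostly from the second kind of nucleus, with 579 CPM against 38.1 in the first. Ciita, the regulator of MHC class II transcription, had 20 UMIs and 2 and was called in 3 of 8. Its ratio in the other nuclei was 3.68, which left 1.31. Hs6st3, a heparan sulphate sulphotransferase, had 57 and 5 UMIs, a ratio of 7.84 (3.17 to 25.1), and was called in all 8 settings tried. Metrnl, which encodes the secreted factor meteorin-like, had 24 and 1 UMIs and was called in 6 of 8.

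Of the monocyte list, 2 of 6 tested genes were higher in taPVAT, Itgal and Itga4, which were also raised in the second kind of nucleus. Other lists had higher members too, with 2 of 10 resident and perivascular genes (Timd4 and Selenop) and 2 of 9 cytokine and receptor genes. Of 10 genes for sterol and fatty acid handling, 2 were higher and 1 lower. Itgal was 2.99 times (2.01 to 4.58) as high, with 135 UMIs against 31, Itga4 2.27 times (1.53 to 3.43), and Itgb2 3.17 times (1.72 to 6.30). Nuclei of the second kind were 31.8% of macrophage nuclei in taPVAT and 27.1% in BAT, and held 22.8% and 18% of their UMIs. Without the nuclei rich in adipocyte UMIs, Itgal was still called at 2.31 times and Itga4 at 2.03 times, but Itgb2 at 2.30 times was not.

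The 10 genes most raised in BAT were Scn7a, Grik2, Cadm2, Nckap1, Abca8a, Angptl4, Csmd1, Slc35f1, Kif15 and Stard13, several of them from few nuclei. Angptl4 was called in 2 of 8 settings, and Nckap1 and Kif15 in 4. Without the deepest nucleus of each library, Angptl4 and Nckap1 were not called. Kif15 had a taPVAT over BAT ratio of 0.229 in macrophage nuclei but 0.0744 in the other nuclei, so that relative to these it was 3.08 times as high in taPVAT. Scn7a, an atypical sodium channel of glia, had 1 UMI in taPVAT and 85 in BAT, all from 5 nuclei, and was called in all 8 settings. Without the nuclei rich in adipocyte UMIs, its 27 UMIs in BAT came from 1 nucleus. Cadm2, a synaptic adhesion gene, had 15 and 72 UMIs, the latter from 7 nuclei, of which 1 gave 48.6%. Csmd1, which encodes a complement-regulating membrane protein of neurons, had 23 and 77 UMIs, the latter from 14 nuclei, 4.87 times (3.02 to 8.13) as high in BAT and called in all 8 settings. Gria2, a subunit of the AMPA glutamate receptor and one of the leading genes, had 25 UMIs from 16 nuclei of taPVAT and 66 from 16 of BAT, 3.84 times (2.39 to 6.35) as high in BAT. The part of Schwann cell RNA in these values was not tested, and of the other genes of that list Ncam1 had 5 UMIs in taPVAT and 15 in BAT, and Cdh19 0 and 5. For 34 of the 73 genes on this side, 1 nucleus gave over 25% of the UMIs of BAT.

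**Figure D5:**
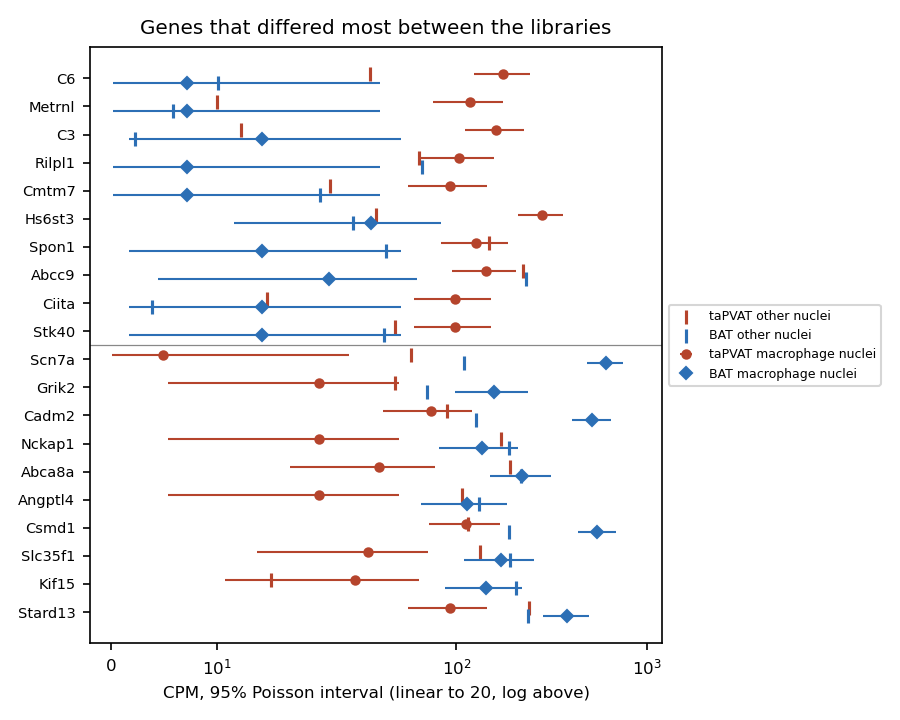
Level in CPM (x axis, linear to 20 and log above) of the 10 genes most raised (top) and the 10 most lowered (bottom) in taPVAT against BAT macrophage nuclei, with 95% Poisson intervals and ticks for the other nuclei of each library. C6 rests on 36 against 1 UMI and Scn7a on 1 against 85.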

How the data were processed

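Nuclei were isolated, fixed and barcoded with the Parse workflow. Per the labels and the methods of the study, the authors ran FastQC and split-pipe against rat assembly GRCr8 and deposited filtered matrices of raw UMI counts per gene and nucleus (38697 genes). These counts were used as deposited. Doublets, which the study identified with scDblFinder, were not called here, and its limits on nuclei (100 to 15000 UMIs, at most 4500 genes, 3% mitochondrial UMIs and 5 median absolute deviations) were tried as an alternative.

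UMIs were summed over nuclei and scaled to CPM in Python 3.11.15 (numpy 2.4.6, scipy 1.17.1, pandas 2.3.3), and figures were drawn with matplotlib 3.10.9. Ratios had 1 UMI added to each sum, except ratios between the libraries that are printed with an interval, which had none added. Genes needed 50 UMIs in the library against the other nuclei and 20 UMIs over the macrophage nuclei between libraries or kinds of nuclei. Nucleus classes followed rules of the same form, and adipocyte nuclei were those with at least 5 UMIs of 6 adipocyte genes that met no other rule. Named were the 20 genes with the largest smaller ratio of both libraries, the 10 most raised and the 10 most lowered between libraries, and members of the gene lists, of which 9 names did not match the files. The calls were also tried on simulated counts, and no value given here comes from that trial. Members and lists were chosen with earlier results of these data known. Alternatives were other limits on A, depth, low counts, members and pseudocount. The counts with intervals apart, those on nuclei with and without Mrc1, Cd163 or F13a1 and their alternatives were chosen after seeing the data. A few genes are not reported here.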

Additional observations from a re-analysis of the deposited data

How the results depend on the processing

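The share of macrophage nuclei moved with the limit and with depth. In taPVAT it was 6.02% with A of at least 2, 3.18% with A of at least 5, 3.10% from Mrc1, Cd163, F13a1 and Csf1r alone, 2.80% thinned, 3.84% in nuclei of at least 1000 UMIs and 4.06% without nuclei rich in adipocyte UMIs. In BAT it was 1.26%, 1.15%, 0.619% and 1.22% for A of at least 5, the 4 genes, thinning and adipocyte UMIs. Genes higher and lower than in the other nuclei of taPVAT numbered 403 and 418 with at least 200 UMIs, 2581 and 1317 without nuclei rich in adipocyte UMIs, and 879 and 414 with intervals apart. Genes higher were 3599 with at least 20 UMIs, and genes lower 1510 with a pseudocount of 0.1. In BAT the counts were 408 and 349 with at least 200 UMIs and 603 and 227 with intervals apart, with 4097 higher without nuclei rich in adipocyte UMIs, 872 higher when these were left out and intervals had to be apart, 4295 higher with at least 20 UMIs and 1676 lower with a pseudocount of 0.1. Between the libraries, 54 were higher and 43 lower with at least 50 UMIs and 28 and 35 without nuclei rich in adipocyte UMIs, and genes higher in taPVAT were 51 relative to the other nuclei, 38 under the limits of the study and 58 without the deepest nucleus. Of genes higher in nuclei without Mrc1, Cd163 or F13a1, 23 were called without nuclei rich in adipocyte UMIs, 12 with at least 50 UMIs and 30 in nuclei of at least 1000 UMIs, where 13 were lower. For the count of 23, Plin4 took the place of Acaca among the adipocyte genes that marked these nuclei. Fewer genes or nuclei entered the stricter settings, and for the other changes the cause was not tested. Of the 240 alternative values, 43 shares and counts were taken as unchanged and 37 as moved. The limit for counts was loose, since 1278 genes higher in BAT with a pseudocount of 0.1 were taken as unchanged from 1869. Of the calls of single genes 109 were kept, 50 were lost and 1 turned in direction. Kif15 turned, being 3.08 times as high in taPVAT as in BAT when its ratio was divided by that in the other nuclei. No paired analysis was possible because each depot had 1 library. The values of BAT rest on 48 nuclei.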

Other observations

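An unnamed gene, ENSRNOG00000087169, gave 8.06% of the macrophage UMIs of taPVAT and 10.1% of those of BAT, and 12.0% and 12.3% in the other nuclei, so that it weighs on every CPM. S100a9, a gene of neutrophils and inflammatory monocytes, had 3 UMIs in 1 macrophage nucleus of taPVAT and 13 UMIs in 1 nucleus of BAT, and none in the other macrophage nuclei. Ucp1, the uncoupling protein of brown adipocytes, had 1008 CPM in the macrophage nuclei of taPVAT against 1814 in the other nuclei, and 1666 against 2081 in BAT, where 1 nucleus gave 41.5% of its UMIs. Mitochondrial transcripts were 0.343% of macrophage UMIs in taPVAT and 0.256% in BAT, against 0.364% and 0.342% in the other nuclei.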
